A study of Rattus rattus with 8 samples.

Results

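Expression of 10 genes of the TGF-beta superfamily was measured in rat heart cultures: the ligands Tgfb1, Tgfb2, Tgfb3, Inhba, Bmp2, Bmp4 and Bmp10 and the receptors Tgfbr1, Tgfbr2 and Tgfbr3. They were selected by gene name from the 30957 genes of the table, with no measured value in the rule. They fill 11 rows, because Tgfbr1 has 2. The second Tgfbr1 row, on chromosome 5 from 64566804 to 64584309, held 2 counts in 2n replicate 2 and 0 in the other 7 libraries, so the values below are those of the other row. Of the 10 genes, 9 passed the filter on low counts and were tested. Bmp10 did not.

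The 8 libraries came from cultures of neonatal rat cardiomyocytes of the SD strain, taken 1 to 3 days after birth and enriched by letting faster-sticking cells attach first. The 2n group (4 libraries) was sorted as diploid and the 4n group (4 libraries) as tetraploid, from the signal of the DNA dye Hoechst at 2 µg/mL. Both groups had received 0.2 mM AraC, an inhibitor of DNA synthesis, with insulin, transferrin and selenium for 24 h, then serum starvation and 48 h at 1% oxygen. All libraries are therefore hypoxic, and no effect of oxygen can be read from them. Tetraploid nuclei, binucleated cells, cells in G2 or M phase and pairs of diploid cells stuck together cannot be told apart in a 4n sort.

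Ligands of this superfamily are secreted dimers. They bring a type II receptor, such as Tgfbr2, together with a type I receptor, such as Tgfbr1, which then phosphorylates Smad proteins that enter the nucleus. TGF-beta and activin signal mainly through Smad2 and Smad3, and BMPs through Smad1, Smad5 and Smad9. In the heart, TGF-beta is best known for activating fibroblasts and matrix production, BMP2 and BMP4 for cushion and valve formation, and BMP10 as a cardiomyocyte-derived ligand of trabecular growth.

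Total gene counts ran from 14783521 to 21033772 per library. Mitochondrial genes held 2.87% to 3.82% of counts in the 2n libraries, 3.71% in 4n replicate 1 and 24.1% to 25.9% in 4n replicates 2 to 4. Levels are given as CPM, the count scaled to a common library size with TMM factors, which offsets such shifts. Of 13 tested cardiomyocyte markers, 12 rose in 4n. Their summed level was 521 to 1024 CPM in 2n and 4405 to 32287 CPM in 4n. The cardiac actin gene Actc1, at 86.7 to 246 CPM, stood far below the collagen gene Col1a1, at 23990 to 31820 CPM, in the 2n libraries. Summed fibroblast markers were 44503 to 57875 CPM in 2n and 29599 to 51720 CPM in 4n. Of 9 tested, 2 fell, Pdgfra and Lum, which are named here after their values were seen, and Col1a2 was at 0 in all 8 libraries. Summed endothelial markers were 109 to 195 CPM in 2n and 146 to 553 CPM in 4n, and 6 of 9 rose. By sign 7 folds were positive and 2 negative, those of Flt1 (-0.23) and Tek (-0.22), named here after their values were seen. Flt1 alone had 67.5 to 129 CPM in 2n and 47.1 to 115.5 CPM in 4n. Without the pairing 0 of the 9 passed in edgeR. In edgeR 0 of 10 smooth muscle and pericyte markers passed (unadjusted p under 0.05 for 3 higher and 1 lower). Of 8 epicardial markers 2 rose and 0 fell (unadjusted p under 0.05 for 4 higher and 2 lower). The epicardial markers summed to 123 to 158 CPM in 2n and 106 to 158 CPM in 4n. Of 10 leukocyte markers, 2 could be tested and neither passed, 1 was at 0 in all libraries, and they summed to 3.71 to 7.81 CPM in 2n and 4.15 to 17.1 CPM in 4n. Each of the 7 too low to test had more counts over the 4n than over the 2n libraries. Lyz2 had 187 and 30 and Ptprc 44 and 1, both named here after their values were seen. Cd14, which was tested, averaged 4.62 CPM in 2n and 4.08 CPM in 4n.

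None of the 9 tested ligand and receptor genes passed the test between 4n and 2n cells. Libraries were paired by replicate number in edgeR's quasi-likelihood test, with Benjamini-Hochberg adjustment over 12983 genes and a threshold of 0.05. In that fit 4.27% of all genes rose and 0.608% fell, so few of 9 genes would be called at the background rate. The 2 members with an unadjusted p under 0.05, the activin gene Inhba and the receptor gene Tgfbr1, both had lower values in 4n, where 13.0% of all genes had such a p and direction. In the other direction 16.9% of all genes had such a p and 0 of the 9 did. DESeq2 called the same 2 lower, where it called 4.98% of the 12479 genes it gave an adjusted p lower and 10.3% higher. The limma-voom fit called 0 of the 9, and 6.89% of all genes higher and 1.21% lower. Without the pairing edgeR called 0 of the 9, as against 2.67% of all genes higher and 0.00770% lower. In CPM the 2n and 4n values overlapped for each of the 9, while 7.68% of all genes lay wholly higher and 3.69% wholly lower in 4n. None of the 9 was higher in 4n in all 4 pairs, as 20.2% of all genes were. Of the 9 log2 fold changes 6 were negative, with a median of -0.25 against -0.02 over all genes. RNA from a sorted population is measured in bulk, so fewer cells of a type and less RNA per cell cannot be told apart.

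**Figure D1:**
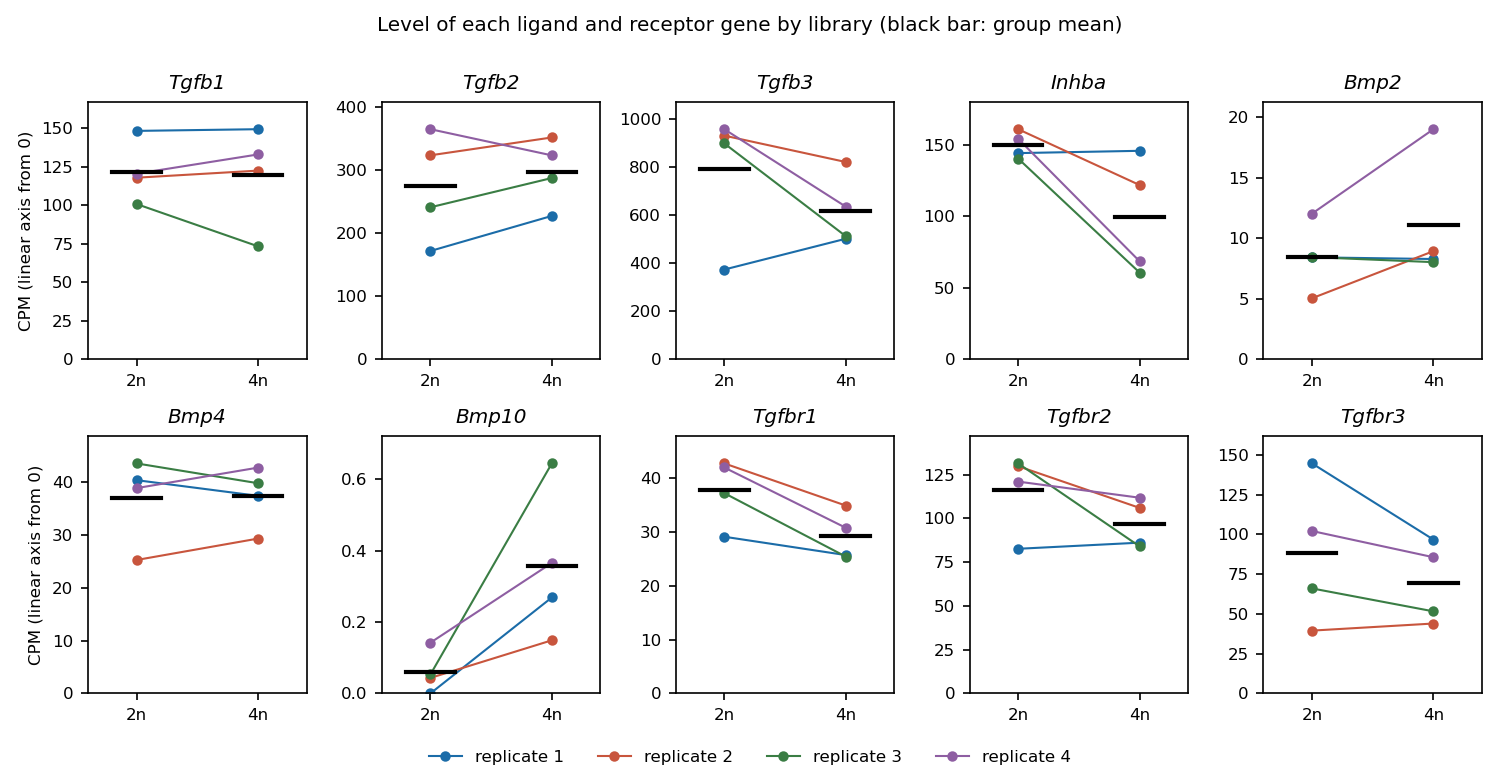
CPM of each of the 10 genes (linear axes from 0) in the 2n and 4n libraries, with a line joining the libraries of 1 replicate number and a black bar at each group mean. Inhba is level in replicate 1 and lower in 4n in the other 3 pairs, Tgfbr1 is lower in 4n in 4 of 4 pairs, and the replicates of Tgfbr3 stand in the same order in 2n and 4n.

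Levels between genes are compared here by the deposited FPKM, which divides by transcript length. Tgfb3 was the most abundant of the 10, at 272 ± 99.4 FPKM over all 8 libraries (SD, n = 8). It was 4.61 times the next gene and above it in 8 of 8 libraries. Tgfb2 (58.9 ± 13.5 FPKM), Tgfb1 (57.4 ± 15.9) and Inhba (50.4 ± 19.5) followed and did not separate: each exceeded the next in 6, 5 and 6 of 8 libraries, Inhba being set against Tgfbr2. Tgfbr2, the type II receptor, had 38.7 ± 9.55 FPKM and lay above Tgfbr3 in 8 of 8 libraries. Tgfbr3 (13.4 ± 7.05) and Bmp4 (11.9 ± 2.51) did not separate, Tgfbr3 being higher in 4 of 8. Bmp4 exceeded Tgfbr1 (5.48 ± 1.47), the type I receptor, in 8 of 8 libraries. Tgfbr1 exceeded Bmp2 (3.03 ± 1.15) in 7 of 8. Bmp10 was last, at 0.146 ± 0.136 FPKM. Since FPKM is not adjusted for the mitochondrial share, the FPKM of most genes is shifted down in 4n replicates 2 to 4, while the order within a library is not affected.

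**Figure D2:**
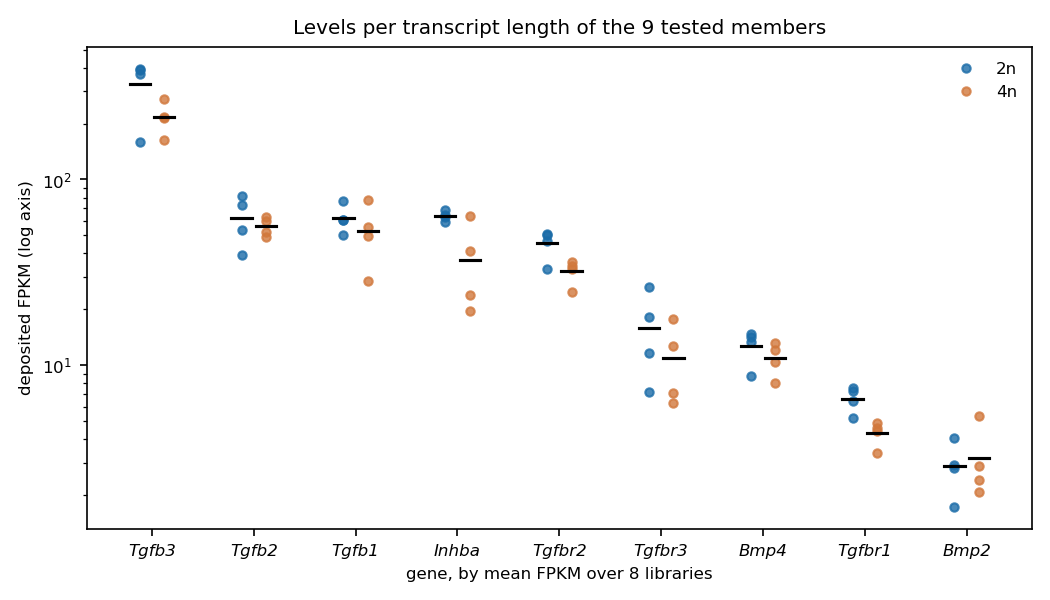
Deposited FPKM (log axis) of the 9 tested genes in each 2n and 4n library, in order of the mean over 8 libraries, with black bars at the group means. Tgfb3 lies above all others, and Tgfb2, Tgfb1 and Inhba overlap. Bmp10, with a value of 0 in 1 library, is not drawn.

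Tgfb1, the isoform best known in fibrosis, lies on chromosome 1 from 82480195 to 82497199 in Rnor 6.0. It had 148, 118, 101 and 121 CPM in 2n replicates 1 to 4, and 149, 123, 73.3 and 133 CPM in 4n. The groups overlapped, and 4n replicate 3 was the lowest library. The log2 fold change of 4n over 2n was -0.06 ± 0.12 (SE, edgeR adjusted p = 0.751), and it was 0.07 without replicate 3.

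Tgfb2, the isoform of cushion and outflow tract formation, lies on chromosome 13 from 105039853 to 105141030. It had 172, 323, 241 and 365 CPM in 2n, and 227, 352, 287 and 323 CPM in 4n. Replicate 1 was the lowest in both groups, and 4n was higher in 3 of 4 pairs. Its log2 fold change was 0.15 ± 0.11 (SE, edgeR adjusted p = 0.392) and became -0.09 with total count scaling, which moves the median of all genes to -0.26.

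Tgfb3, on chromosome 6 from 109913757 to 109935533, had 374, 932, 899 and 958 CPM in 2n and 502, 822, 513 and 636 CPM in 4n. The 2n library of replicate 1 stood apart below the other three, and its pair went up by 0.43 on the log2 scale while the other pairs gave -0.18, -0.81 and -0.59. The fitted log2 fold change was -0.29 ± 0.20 (SE, edgeR adjusted p = 0.361). Over all leave-one-out and other alternatives it stayed negative, between -0.59 and -0.12, and passed in none of 21.

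Among transcripts of the 3 TGF-beta ligands, by FPKM, Tgfb3 made up 57.7%, 74.5%, 78.0% and 73.5% in 2n and 62.1%, 70.7%, 67.6% and 65.3% in 4n. Tgfb2 held 13.7% ± 1.66 of them in the 2n libraries and 17.5% ± 2.29 in the 4n libraries (SD, n = 4 each), with the 4n value above in 4 of 4 pairs. These shares were among 15 computed after values had been seen, and sign flips over 4 pairs are too few for an exact p under 0.05. Each share also depends on the levels of the other ligands.

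Inhba encodes the beta A subunit that forms activin A as a dimer and inhibin A with the alpha subunit. It lies on chromosome 17 from 51898217 to 51912496. Its 2n values were close together, at 144, 161, 140 and 154 CPM, while 4n had 146, 122, 60.5 and 68.5 CPM. The 4n library of replicate 1 lay within the 2n range, and the other three 4n libraries lay below it. By pair the log2 differences were 0.02, -0.40, -1.21 and -1.17. The fitted log2 fold change was -0.69 ± 0.23 (SE), or a ratio of 0.620, and did not pass (edgeR adjusted p = 0.112). It passed with DESeq2 (-0.70, adjusted p = 0.0138), with total count scaling (-0.94, edgeR adjusted p = 0.0294) and on log2 FPKM (-0.93, limma adjusted p = 0.0302). Without replicate 1 it was -0.95 and passed (edgeR adjusted p = 0.0171), while leaving out replicate 2, 3 or 4 did not make it pass. Replicate 1 was also the 4n library with the lowest summed cardiomyocyte markers (4405 CPM) and the lowest mitochondrial share, and 4n replicates 3 and 4 had the lowest summed fibroblast markers (29599 and 29947 CPM). The part of these in the Inhba values was not tested.

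Bmp2, a ligand of valve and conduction development, lies on chromosome 3 from 126335863 to 126346318. It had 8.41, 5.03, 8.43 and 12.0 CPM in 2n and 8.27, 8.92, 8.01 and 19.0 CPM in 4n, from 112 to 260 counts per library. Replicate 4 was the highest in both groups, and 2 of 4 pairs were higher in 4n. The log2 fold change was 0.35 ± 0.19 (SE, edgeR adjusted p = 0.262), and without 4n replicate 4 and without the pairing it was -0.01.

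Bmp4, on chromosome 15 from 20776054 to 20822740, had 40.4, 25.3, 43.5 and 38.9 CPM in 2n and 37.4, 29.3, 39.8 and 42.7 CPM in 4n. Replicate 2 was the lowest in both groups. The group means were 37.0 ± 8.07 and 37.3 ± 5.77 CPM (SD, n = 4 each). The fitted log2 fold change was 0.03 ± 0.10 (SE, edgeR adjusted p = 0.884). On total count scaling and on FPKM the sign was reversed, at -0.22 and -0.21.

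Bmp10, on chromosome 4 from 119225040 to 119230728, was near the limit of detection. It had 0, 1, 1 and 3 counts in 2n replicates 1 to 4 and 5, 2, 9 and 5 counts in 4n. These are 0, 0.0434, 0.0530 and 0.142 CPM in 2n and 0.269, 0.149, 0.644 and 0.365 CPM in 4n. The groups did not overlap, by 0.142 against 0.149 CPM, and 7.68% of all genes tested had 4n values wholly above the 2n values. In 2n replicate 1 the count of 0 allows up to 0.183 CPM (3 counts, counting error only), which is above the value of 4n replicate 2. Tested with no filter on low counts it did not pass (log2 fold change 2.40, which depends on the prior count at such levels, edgeR adjusted p = 0.169). The list of 7 atrial cardiomyocyte markers, which includes Bmp10, summed to 103 to 228 CPM in 2n and 673 to 6743 CPM in 4n. Most of this sum was Nppa, at 51.5 to 170 CPM in 2n and 628 to 6611 CPM in 4n. Of the 5 tested genes of the list 3 rose. By sign 4 folds were positive and 1 negative, that of Nr2f2 (-0.24, edgeR adjusted p = 0.293). Myl7 is also in the cardiomyocyte list. Whether Bmp10 follows these markers was not tested.

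The type I receptor gene Tgfbr1, on chromosome 5 from 63050758 to 63119635, had 29.1, 42.7, 37.2 and 41.9 CPM in 2n and 25.7, 34.9, 25.4 and 30.8 CPM in 4n. It was the only one of the 9 tested genes to be lower in 4n in 4 of 4 pairs, by 0.18, 0.29, 0.55 and 0.45 on the log2 scale, as 19.7% of all genes were. The groups overlapped, because 2n replicate 1 was below 2 of the 4n libraries. The log2 fold change was -0.37 ± 0.10 (SE), a ratio of 0.776. The edgeR adjusted p was 0.0737 with the pairing and 0.285 without it, both above the threshold. With DESeq2 it passed (-0.38, adjusted p = 0.0408), as it did with total count scaling (-0.61, edgeR adjusted p = 0.0127) and on log2 FPKM (-0.60, limma adjusted p = 0.0243).

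Tgfbr2, on chromosome 8 from 124312754 to 124399494, had 82.6, 130, 131 and 121 CPM in 2n and 86.1, 106, 84.0 and 112 CPM in 4n. As in Tgfb3 and Tgfbr1, 2n replicate 1 was the lowest 2n library. The log2 fold change was -0.25 ± 0.12 (SE, edgeR adjusted p = 0.219), and it was -0.49 with total count scaling, where it passed (edgeR adjusted p = 0.0402), and on FPKM (-0.49, limma adjusted p = 0.0458). With 1 replicate left out it ran from -0.40, without 2n replicate 1 and the pairing, to -0.11, without replicate 3, and did not pass.

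Tgfbr3, or betaglycan, is a co-receptor that presents ligand to Tgfbr2 and also binds inhibin. It lies on chromosome 14 from 3506339 to 3682545. It had 145, 39.5, 66.0 and 102 CPM in 2n and 96.7, 43.9, 51.6 and 85.6 CPM in 4n. Replicates 1 and 4 were high and replicates 2 and 3 low in both groups, so the cultures differed by more than the sorted groups did. The log2 fold change was -0.26 ± 0.13 (SE, edgeR adjusted p = 0.201). With total count scaling it was -0.50 (edgeR adjusted p = 0.0226) and on FPKM -0.50 (limma adjusted p = 0.0280), and both passed. Without 2n replicate 1 and without the pairing it was 0.004 (edgeR adjusted p = 0.997).

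Of the 3 TGF-beta receptor transcripts, by FPKM, Tgfbr2 made up 66.7% ± 11.8 in 2n and 68.4% ± 5.94 in 4n, and Tgfbr1 9.77% ± 1.47 and 9.29% ± 1.34 (SD, n = 4 each). Tgfbr3 had 41.0%, 10.9%, 17.0% and 25.2% in 2n and 31.3%, 14.3%, 19.9% and 23.9% in 4n. The makeup of the receptors thus differed between cultures far more than between the groups, and for each receptor 2 of 4 pairs went up and 2 went down.

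**Figure D3:**
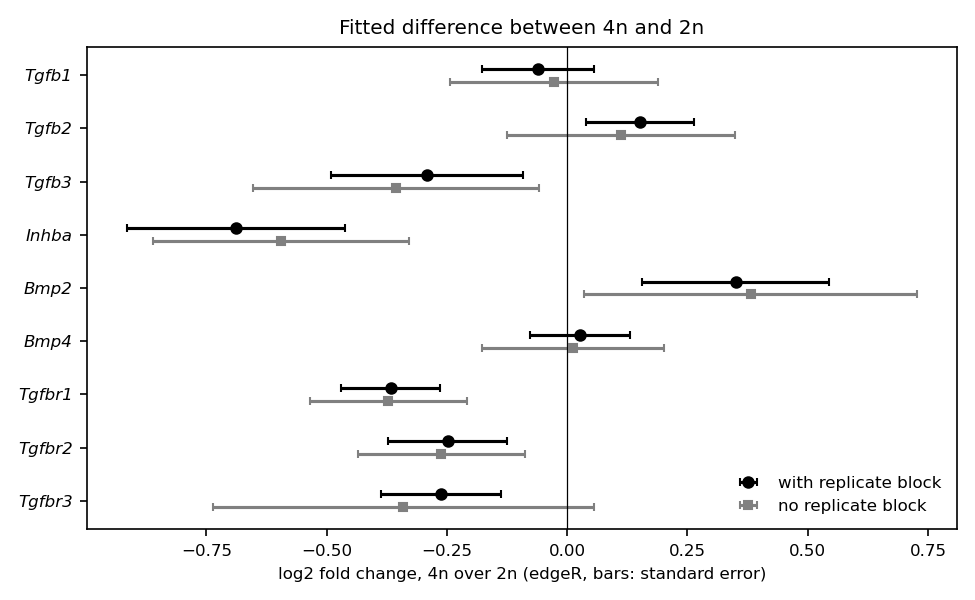
Log2 fold change of 4n over 2n for the 9 tested genes in edgeR, with (circles) and without (squares) the replicate number as a block, and bars of 1 standard error. Inhba lies farthest below 0, at -0.69 with the block, and the bars of Tgfbr3 are the ones most narrowed by the pairing, from 0.40 to 0.13.

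The rest of the pathway was described from 8 lists holding 112 genes, of which 110 had a row and 84 could be tested. The lists were chosen with earlier results of these data known, so their counts are a description. Of the 84, 8 rose in 4n and 0 fell (edgeR with the block, 4.27% and 0.608% of all genes). At an unadjusted p under 0.05, 16 of the 84 had higher values and 22 lower, against 16.9% and 13.0% of all genes. DESeq2 called 12 higher and 12 lower, against its shares of 10.3% and 4.98% over all genes. Without replicate 2 or without replicate 4 edgeR called 0 pathway genes in either direction, of 85 and 84 tested, and 0 of all 13115 and 12946 genes tested. Each call below is therefore lost without either pair. At an unadjusted p under 0.05 these fits had 15 and 13 pathway genes higher and 17 and 8 lower. The median log2 fold change over the 84 was -0.09. The 8 genes are those named below as having risen.

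Among ligands outside the 10, Bmp7, an epithelial and kidney BMP, rose from 1.28, 0.434, 0.424 and 1.37 CPM in 2n to 5.32, 11.8, 36.2 and 16.4 CPM in 4n. The groups did not overlap, and 4n replicate 3 was highest. Its log2 fold change was 4.09 ± 0.68 (SE, edgeR adjusted p = 0.0436). It was the 1 gene to rise of 10 ligands tested, 0 fell, and their median was -0.07. The other 15 ligands with a row were too low to test, 4 of them at 0 in all libraries. In the summed FPKM of the 9 BMP genes counted, Bmp7 had 0.567% ± 0.271 in the 2n libraries and 12.5% ± 9.55 in the 4n libraries (SD, n = 4 each). Bmp6 had 57.2% ± 5.77 and 48.0% ± 9.89, Bmp4 15.9% ± 1.02 and 17.0% ± 1.13, and Bmp2 3.53% ± 0.647 and 4.89% ± 1.90. Bmp3 had 22.6% ± 5.31 and 16.9% ± 5.36. In 4 of 4 pairs the shares of Bmp2, Bmp4, Bmp7 and Bmp10 were higher in 4n and those of Bmp3, Bmp6 and Bmp8b lower. Bmp8b was too low to test, with 13 counts over the 2n libraries and 0 over the 4n libraries. The shares of a library add up to a whole, so each depends on the levels of the other genes. The CPM of Bmp4 was higher in 4n in only 2 of 4 pairs.

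Among 11 tested receptors and co-receptors outside the 10, Hfe2 rose and 0 fell, with a median of 0.04. Hfe2 encodes hemojuvelin, a BMP co-receptor of liver and striated muscle. It had 0.122, 0.0868, 0.159 and 0.142 CPM in 2n and 0.859, 1.26, 5.80 and 1.68 CPM in 4n, so all 2n libraries were at 2 to 3 counts. The log2 fold change was 3.99 ± 0.48 (SE, edgeR adjusted p = 0.0145), and at such counts it depends on the prior count.

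None of 9 Smad proteins and nuclear partners passed in edgeR. Their median was -0.18, and 3 lower and 0 higher had an unadjusted p under 0.05. Smad5, a BMP-activated Smad, came closest at -0.36 ± 0.10, followed by the repressor Tgif1 at -0.48 ± 0.14 (SE, edgeR adjusted p = 0.0671 and 0.0782). Both passed with DESeq2 (adjusted p = 0.0365 and 0.0362). Smad9 was at 0 in all libraries.

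Of 7 inhibitory Smads and receptor inhibitors, Fkbp1a rose, 0 fell, and the median was 0.07. Fkbp1a encodes FKBP12, which binds the type I receptor and also the ryanodine receptor. It had 246, 278, 265 and 231 CPM in 2n and 304, 393, 484 and 418 CPM in 4n, with no overlap (log2 fold change 0.63 ± 0.12 SE, edgeR adjusted p = 0.0381). It did not pass without the pairing (edgeR adjusted p = 0.0613) or with total count scaling (0.39, edgeR adjusted p = 0.0759).

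Of 12 secreted antagonists, Chrdl1, a chordin-like BMP inhibitor, rose, 0 fell, and the median was -0.14. At an unadjusted p under 0.05, 1 of the 12 was higher and 4 were lower. Chrdl1 had 0.244, 0.651, 0.106 and 2.65 CPM in 2n and 1.77, 0.892, 0.787 and 13.9 CPM in 4n, where the groups overlapped and replicate 4 was highest in both. Its log2 fold change was 2.04 ± 0.43 with the pairing (SE, edgeR adjusted p = 0.0448), and it did not pass without it (edgeR adjusted p = 0.357). Of 15 genes of latency and activation, Nrros, which tethers latent TGF-beta on myeloid cells, rose, 0 fell, and the median was -0.19. At an unadjusted p under 0.05, 2 of these 15 were higher and 6 lower, against 16.9% and 13.0% of all genes. Nrros had 0, 0.0868, 0 and 0.757 CPM in 2n and 0.591, 1.04, 0.787 and 5.99 CPM in 4n (log2 fold change 3.50 ± 0.55 SE, edgeR adjusted p = 0.0275, and 0.212 without the pairing). At such counts the fold of Nrros depends on the prior count. Over 20 alternatives the log2 fold change ran from 0.33 to 3.62 for Chrdl1 and from 1.83 to 5.68 for Nrros. Chrdl1 and Nrros each passed in 9 of the 20. Both genes were highest in 4n replicate 4, the library with the highest summed endothelial markers, at 553 CPM. Summed leukocyte markers were 12.6 CPM there and highest in 4n replicate 1, at 17.1 CPM, where Nrros had 0.591 CPM. The part of other cell types in these values was not tested.

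Of 15 TGF-beta response genes, Tgfbi, a secreted matrix protein, rose, 0 fell, and the median was -0.12. Tgfbi had 7.80, 5.90, 9.49 and 13.1 CPM in 2n and 18.2, 19.2, 61.5 and 29.8 CPM in 4n, with no overlap (log2 fold change 1.70 ± 0.27 SE, edgeR adjusted p = 0.0326, and 0.0570 without the pairing). Of the 15, 10 had negative folds, as had 6792 of 12983 over all genes. At an unadjusted p under 0.05, 3 were higher and 4 lower, against 16.9% and 13.0% of all genes. Col1a1, Col3a1 and Postn are also in the fibroblast list, and Acta2 and Tagln in the smooth muscle list. Postn and Col3a1, named here after their values were seen, were among the 4 lower.

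All 11 tested BMP response genes had positive folds, with a median of 0.25, and 2 rose. Over all genes 6191 of 12983 were positive. Of the 11, 5 were higher in 4n in all 4 pairs and 0 lower in all 4, as 20.2% and 19.7% of all genes were. The signs are those with TMM factors. Total count scaling moves the median of all genes to -0.26, and the folds of this list under it are not given here. Smad6, Smad7 and Bambi are also in the list of inhibitors. Hamp, the gene of the iron hormone hepcidin, had 1.77, 0.477, 0.265 and 1.23 CPM in 2n and 6.55, 8.03, 15.3 and 14.6 CPM in 4n (log2 fold change 3.61 ± 0.56 SE, edgeR adjusted p = 0.0367). Msx2, a homeobox gene, had 0.183, 0.347, 0.212 and 0.473 CPM in 2n and 0.645, 0.892, 3.51 and 1.90 CPM in 4n (log2 fold change 2.32 ± 0.50 SE, edgeR adjusted p = 0.0475, and 0.0720 without the pairing). Bmp7, Hfe2, Fkbp1a, Tgfbi, Hamp and Msx2 were each highest in 4n replicate 3, where summed cardiomyocyte markers were also highest, at 32287 CPM. Hamp was nearly as high in 4n replicate 4 (14.6 CPM), where that sum was 11708 CPM. The part of the cardiomyocyte share in these values was not tested.

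**Figure D4:**
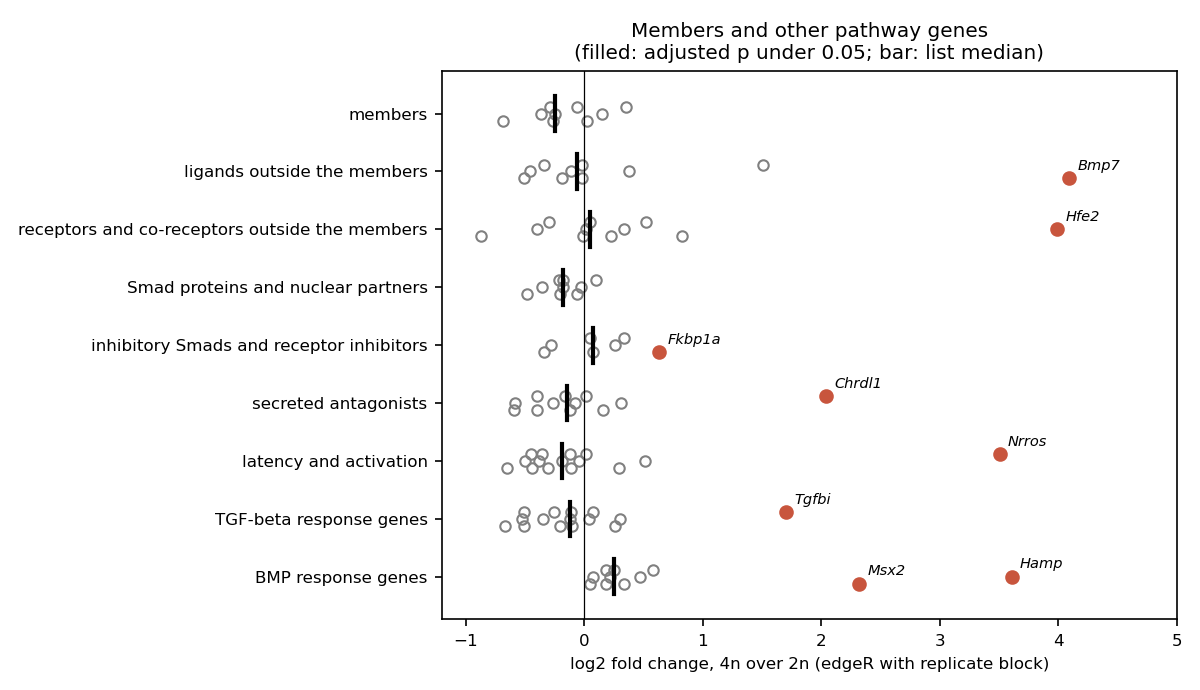
Log2 fold change of 4n over 2n (edgeR with the block) for the tested members and each pathway list, with filled points for genes past an adjusted p of 0.05 and black bars at the list medians. The 8 genes that passed are labelled and lie to the right of 0, and no member is filled. Open points gather within about 1 of 0 except the inhibin gene Inha.

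For 8 of the 9 tested members more of the spread went with the replicate number than with the sort. Over all genes tested the median share was also larger for the replicate number, at 56.1% against 17.1% for the group. The replicate number held 91.4% of the sum of squares of log2 CPM for Bmp4, 90.8% for Tgfbr3 and 85.0% for Tgfb1, against a median of 56.1% over all genes tested. The group of 2n or 4n held 0.284% for Bmp4, 1.01% for Tgfb1, 4.46% for Tgfbr3 and 4.69% for Tgfb2, against a median of 17.1%. Inhba was the exception, with 44.9% for the group and 29.6% for the replicate number. Tgfbr1 had 44.2% for the group and 49.3% for the replicate number. Tgfb3, Bmp2 and Tgfbr2 lay between, with 9.31%, 11.5% and 22.3% for the group. These shares are descriptions, and the replicate number has more degrees of freedom than the group.

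**Figure D5:**
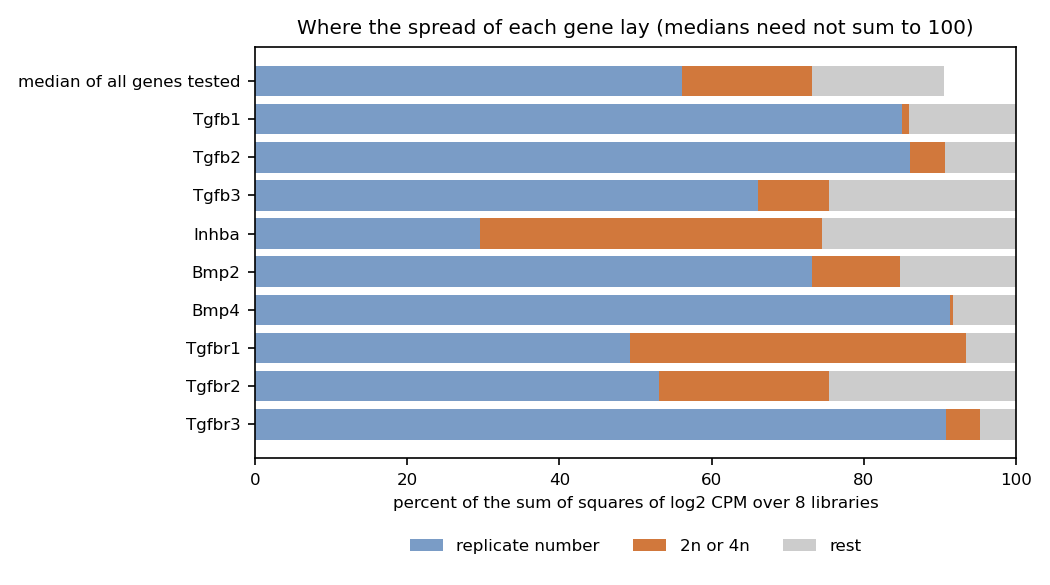
Share of the sum of squares of log2 CPM over 8 libraries that goes with the replicate number, with 2n or 4n, and with the rest, for each tested gene and as the median over all genes tested. The orange part, for 2n or 4n, is wide for Inhba and Tgfbr1 and narrow for Bmp4 and Tgfb1.

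Of the 9 tested members, the 3 with the widest spread over the libraries were Tgfbr3, Inhba and Bmp2. The genes whose log2 CPM followed Tgfbr3 most closely over the 8 libraries were Inpp4a, a phosphoinositide phosphatase, Ogdhl and the heme oxygenase gene Hmox1, with Pearson's r of 0.98, 0.97 and 0.97. For Inhba they were Fam149a, the nucleoporin gene Nup98 and Esyt2, each at 0.99. For Bmp2 they were S100b, Gimap6 and the sialidase gene Neu1, at 0.98, 0.97 and 0.95. Spearman's rho for these was lower, at 0.88, 0.71 and 0.62, and 4n replicate 4 was the library that stood apart in Bmp2. For the Tgfbr3 genes rho was 1.00, 0.98 and 0.95, and for the Inhba genes 0.93, 0.79 and 0.88. S100b and Gimap6 were low, with group means of 0.719 to 1.81 CPM. These are the closest of 12983 genes over libraries that form 4 pairs, and are given as a description.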

How the data were processed

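Messenger RNA of 8 libraries (4 of 2n, 4 of 4n) was sequenced. The submitters' processing notes list HISAT2 2.0.4, an aligner, and the build Rnor 6.0, although the organism label reads Rattus rattus. How reads were counted, and whether by strand, is not stated in the labels or headers. The authors deposited, per the file headers, a raw count and an FPKM value per gene and library. The deposited FPKM is the count divided by the library's total and a constant per gene. Groups and replicate numbers came from the titles.

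Counts were tested in edgeR 4.0.16 (R 4.3.3): filterByExpr kept 12983 of 30957 genes, TMM scaling, and a robust quasi-likelihood fit with group and replicate number as factors. P-values are two-sided. Same-numbered libraries were treated as pairs because descriptions of same-numbered libraries begin with the same code and their deviations from the group means correlated at 0.43, 0.58, 0.27 and 0.65. That cultures were separate is stated in the series' design. Replicates differed by more than sampling noise (chi-square per degree of freedom of 36.4 or more). One count was 0.0434 to 0.0744 CPM, so counting error is small beside the spread of replicates except for Bmp10, Hfe2, Nrros, Chrdl1 and Msx2. Nor is it small in the lowest 2n libraries of Hamp and Bmp7, at 5 and 8 counts. Log2 CPM used a prior count of 2, and log2 FPKM, tested in limma 3.58.1, a pseudocount of 0.1. DESeq2 1.42.0 and limma-voom were run on the same genes, also with the block. The fit was also run on counts simulated from its own dispersions. The changes put in were larger than any tested member's fold and only in well-counted genes. That run therefore does not bear on small folds or low counts.

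The members and lists were chosen with earlier results of these data known. Named genes were all 10 members, up to 4 genes past the threshold of each pathway list (otherwise the 2 with the smallest p), and the 3 genes correlating best with each of the 3 most variable members. Exceptions are stated. Without strand, reads of antisense partners cannot be told apart. The only row overlapping a member was a small RNA within Tgfb2, at 0 counts.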

Additional observations from a re-analysis of the deposited data

Results flagged for a closer look

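Of 18 groups of 4 libraries checked (9 genes in 2n and in 4n), 2 held a library far from the other three, and chance alone sets apart about 1 in 20 groups. The Bmp2 level in 4n replicate 4 was 19.0 CPM, against 8.01 to 8.92 CPM in the other 4n libraries. The Tgfb3 level in 2n replicate 1 was 374 CPM, against 899 to 958 CPM in the other 2n libraries.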

How the results depend on the processing

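The 21 alternatives called 0 of the 9 tested members higher. They called 4 lower with total count scaling, 4 on log2 FPKM, 2 with DESeq2 and 0 to 1 when 1 replicate was left out. Total counts and FPKM carry the mitochondrial share and moved the median of all genes to -0.26. The pathway lists had 4 genes higher with no replicate block and 4 with a minimum of 1 CPM in 4 libraries, and 0 to 11 with 1 replicate left out. They had 23 lower with total counts, 26 on FPKM, 12 with DESeq2, 3 with limma-voom, 1 with no filter, 1 without mitochondrial genes and 0 to 4 with 1 replicate left out. Of all genes, 554 rose and 79 fell with the replicate pairing, and 347 and 1 with no replicate block. Total counts gave 858 and 2520, DESeq2 1283 and 621, limma-voom 895 and 157, and FPKM 894 and 2327. Without mitochondrial genes 127 fell. With 1 replicate left out 0 to 1254 rose and 0 to 399 fell, with 0 in both directions without replicate 2 or 4 and 50 fallen without replicate 3. With no block, 870, 308 and 278 rose without 4n replicate 1, 2 and 3, and 0 without any other single library. The sign was reversed with total counts and on FPKM for Tgfb2 (-0.093 and -0.092) and Bmp4 (-0.22 and -0.21). Leave-one-out values ran from -0.15 to 0.15 for Tgfb1, -0.061 to 0.28 for Tgfb2, -0.59 to 0.0038 for Tgfbr3, -0.012 to 0.60 for Bmp2 and -0.13 to 0.11 for Bmp4. Fits that left out a single library had no block. Among these values, Tgfb1 was at 0.071 without replicate 3, 0.078 without 2n replicate 1 and 0.15 without 4n replicate 3. The Tgfb2 and Tgfbr3 signs were reversed without 2n replicate 1, and that of Bmp2 without 4n replicate 4. Bmp4 was at -0.036 without replicate 2, -0.010 without replicate 4, -0.13 without 2n replicate 2, -0.021 without 4n replicate 3 and -0.059 without 4n replicate 4. The signs of Tgfb3, Tgfbr1, Tgfbr2 and Inhba held under the 21. For the other changes the cause was not tested. Depth limits Bmp10, Hfe2, Nrros, Chrdl1 and Msx2, with libraries at 0 to 3 counts. The lowest 2n libraries of Hamp and Bmp7 held 5 and 8 counts.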

Other observations

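The alpha subunit gene Inha, which pairs with the product of Inhba to form inhibin A in place of activin A, was looked at after its values were seen. Inha stood at 20.4, 15.0, 12.9 and 14.6 FPKM in 2n replicates 1 to 4 and at 31.7, 29.1, 70.2 and 30.6 FPKM in 4n. The 4n libraries lay wholly above the 2n libraries, as 7.68% of all genes did on CPM. Its log2 fold change (SE 0.37) did not pass with the block (edgeR adjusted p = 0.0739) and passed without it (log2 fold change 1.65, edgeR adjusted p = 0.0417). The ratio of Inhba to Inha within a library, which no scaling between libraries affects, was 3.06, 4.59, 4.54 and 4.43 in 2n and 2.00, 1.42, 0.279 and 0.783 in 4n. The ratio was therefore lower in 4n in each of the 4 pairs, and in 4n replicates 3 and 4 Inha exceeded Inhba. Both genes were read from the same sorted mixtures, and the part of each cell type in the ratio was not tested.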
